A study of Homo sapiens with 4 samples.

Results

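The genes described here belong to the MAF program of multiple myeloma: the transcription factor MAF and 6 genes known as its targets in this disease, namely the integrin chain gene ITGB7, the chemokine receptor genes CCR1 and CX3CR1, the secreted protein gene SPP1, the cyclin gene CCND2 and the kinase gene NUAK1. They were chosen by symbol, with earlier results of these arrays in view, on the ratio of induced to uninduced cells. The probe annotation names 22 probes for 6 of the 7 genes, out of 15246 probes on the array, and it lists none for NUAK1. Of the 22 probes, 20 had a value on at least 1 array and 11 had values on all 4, while 1 probe each of ITGB7 (25230_1) and CX3CR1 (28527_1) had none.

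EJM, a human multiple myeloma cell line derived from bone marrow, was profiled on spotted cDNA arrays with 2 colours. All cells, the controls included, carried an IκBα super-repressor under control of the tetracycline repressor. Cells induced with 20 µg/ml doxycycline for 1, 2, 3 or 4 days were labelled with Cy5, and uninduced EJM cells with Cy3, with 1 array per day and the dyes never swapped. The control is described identically for all arrays. An effect of doxycycline itself cannot be told apart from that of the super-repressor. EJM is 1 cell line, and nothing in the labels says that the arrays came from separate cultures. Values are log2 ratios of induced over uninduced cells, where 0 means equal signal in both. The direction follows the dyes in the labels and the log base is not stated in the sources used here: every sign rests on the dyes and every fold on base 2.

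MAF is a large basic leucine zipper transcription factor. In a subset of myelomas a translocation to the immunoglobulin heavy chain locus drives a MAF factor. High MAF activity in myeloma is known for raised CCND2, which drives entry into the cell cycle, and for raised ITGB7, through which the cells attach to the bone marrow stroma. NF-κB, which the super-repressor of IκBα blocks, is a separate transcription factor pathway that many myelomas depend on.

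The promoters of the 3 genes with the highest means are shown because these genes carry most of the signal described next. RefSeq promoter sequences (GRCh38.p14) were found for 6 of the 7 genes, all but CCND2, in 8 windows, 3 of them for CX3CR1. Each window below holds the 250 bases before the annotated start, 5′ to 3′ on the gene's strand, in lower case; capitals would mark a motif.
ITGB7 (chr12:53207252-53207501, minus strand): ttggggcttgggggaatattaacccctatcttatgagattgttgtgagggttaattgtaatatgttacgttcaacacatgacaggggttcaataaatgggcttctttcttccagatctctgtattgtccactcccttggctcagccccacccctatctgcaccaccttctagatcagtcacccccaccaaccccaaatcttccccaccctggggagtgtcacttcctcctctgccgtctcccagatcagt
SPP1 (chr4:87975464-87975713, plus strand): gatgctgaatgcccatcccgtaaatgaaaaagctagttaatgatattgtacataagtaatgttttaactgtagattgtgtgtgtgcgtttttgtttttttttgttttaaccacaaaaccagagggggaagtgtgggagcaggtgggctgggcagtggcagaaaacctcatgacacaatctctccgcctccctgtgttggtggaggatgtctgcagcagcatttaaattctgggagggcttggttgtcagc
CCR1 (chr3:46208314-46208563, minus strand): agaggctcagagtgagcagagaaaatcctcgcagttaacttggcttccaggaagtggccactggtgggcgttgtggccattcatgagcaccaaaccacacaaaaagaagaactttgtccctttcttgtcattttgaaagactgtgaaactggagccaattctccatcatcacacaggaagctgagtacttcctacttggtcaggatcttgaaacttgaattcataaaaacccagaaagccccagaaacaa
The letters TGCTGAC, the core of a MAF recognition element, TGACTCA, the AP-1 core, and the κB site were searched on both strands. The MAF core ends in the letters that open the AP-1 core, so matches may overlap. None of the 8 windows held any of the 3 motifs. Among 35116 promoter windows of the same length, 3.43% held the MAF core, 4.2% the AP-1 core and 9.96% the κB site. The search says only that these letters are not in these windows.

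ITGB7, the gene of the uppermost promoter sequence, encodes the β7 chain of the integrins that bind MAdCAM-1, VCAM-1 and E-cadherin. Its gene average over 3 probes was 1.27 after 1 day, 1.50 after 2, 1.47 after 3 and 1.69 after 4. These are signals 2.41-fold, 2.84-fold, 2.77-fold and 3.22-fold higher in induced cells. The mean was 1.48 ± 0.17 (SD, 4 arrays), the highest mean among 7713 features with values on at least 3 arrays, where a feature is a gene average or an unnamed probe. ITGB7 was the only one of 6427 features with values on every array to be at least 2-fold higher on all 4 days (0.0156% of them). Day by day, at least 2-fold higher signals were read for 1.63%, 2.31%, 0.6% and 0.981% of features on days 1 to 4. Because the genes were chosen on this ratio, these values are a description and carry no test. In RNA from whole cultures, more cells that express a gene and more RNA per cell cannot be told apart.

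The 3 ITGB7 probes with values lay at different heights and all on the same side. Probe 28038_1 read 1.49, 2.03, 1.91 and 2.12 on days 1 to 4. Probe 35043_1 read 1.47, 1.44, 1.47 and 1.33. Probe 17515_1 read 0.85, 1.04, 1.03 and 1.62, the lowest of the 3 on days 1 to 3. All 12 probe values were above 0. Among 787 named genes with at least 12 probe values, 21 (2.668%) had every value above 0. That set also holds genes with many more values, such as BACH2 with 78, so its share is not a like background. ITGB7 was also chosen on this same ratio, so the share is no test of it. Probes of the same gene read the same RNA on the same array and are not replicates of a day.

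SPP1, whose promoter is printed above, encodes osteopontin, a secreted phosphoprotein that binds integrins and CD44. It rested on a single probe, 29312_1, which read 0.51, 0.63, 2.32 and 1.30 on days 1 to 4. All days were above 0, and days 3 and 4 stood above days 1 and 2, an order not counted over all features. Ranked from the highest among all features with a value on an array, it was at rank 764 of 7564 on day 1, 438 of 6975 on day 2, 2 of 8829 on day 3 and 41 of 8970 on day 4. The mean was 1.19 ± 0.83 (SD, 4 arrays). No other probe of this gene checks these readings.

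SPP1 is also made by macrophages, so myeloid markers were read beside it. Of 12 myeloid markers 8 had a probe and 7 had values on at least 3 arrays, with 4 means above 0 and 3 below. Their median by day was -0.11, -0.10, -0.04 and 0.21. CD14, the monocyte coreceptor for lipopolysaccharide, read -0.23, 0.47, 0.37 and 0.88 on days 1 to 4. The macrophage receptor CSF1R read -0.19, -0.19 and -0.25 on days 2 to 4. MRC1 read -0.49, -0.40, -0.04 and 0.45 on days 1 to 4, and AIF1 -0.61, -0.19 and -0.03 on days 1, 3 and 4. ITGAM read 0.53, 0.03, 0.05 and 0.21 and CD68 0.02, -0.10, 0.02 and 0.14 on days 1 to 4. FCGR3A read 0.045, -0.194 and 0.25 on days 1, 3 and 4. For the 4 markers with values on every array, a straight line over the days fell for 1, ITGAM (median of the 4 slopes 0.182 log2 per day). Such a line fell for 45.8% of all features. A log ratio gives no level, so whether such markers were present in the cells cannot be read from these values, and their part in the SPP1 values was not tested.

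**Figure D1:**
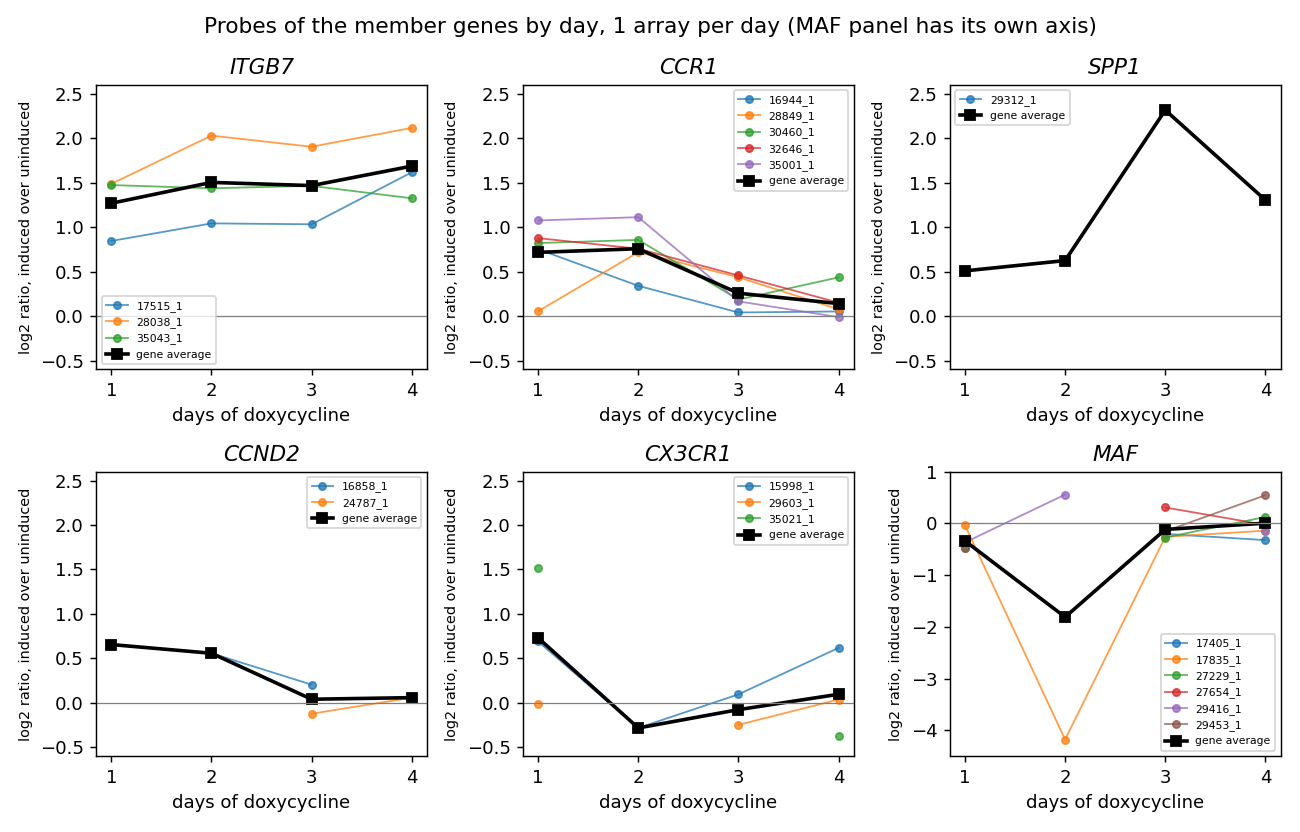
Log2 ratio of induced over uninduced cells (vertical axis) against days of doxycycline for each probe (coloured points) and for the average over probes (black squares), 1 array per day. ITGB7 stayed between 1.27 and 1.69, CCR1 lay higher on days 1 and 2 than on days 3 and 4, and the MAF average of -1.81 on day 2 rested on a single probe at -4.18 (own axis).

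CCR1 encodes a receptor for chemokines such as CCL3 and CCL5 and is known as a MAF target in myeloma. Its gene average over 5 probes was 0.72, 0.76, 0.26 and 0.14 on days 1 to 4. All days were above 0, and days 1 and 2 were higher than days 3 and 4. How many of all features split the days in this way was not counted. All 5 probes had values on every array, so the same probes entered each day. Of their 20 values 19 were above 0, a count not made over all genes. The exception was -0.01 for probe 35001_1 on day 4. That probe had the widest course, at 1.08 and 1.11 on days 1 and 2 and 0.17 on day 3. Probe 28849_1 differed from the other 4, with its lowest value, 0.06, on day 1, and with 0.72, 0.44 and 0.08 on days 2 to 4. The mean was 0.47 ± 0.31 (SD, 4 arrays), above 96.29% of features.

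The spread over all probes was also wider on the earlier arrays, with SDs of 0.517, 0.569, 0.345 and 0.38 on days 1 to 4. Ranked within its own array, CCR1 stood above 95.6% of features on day 1 and 95.9% on day 2, and above 81.48% on day 3 and 69.02% on day 4. The lower CCR1 values on the later arrays went with lower ranks. These ranks were taken among 7564, 6975, 8829 and 8970 features on days 1 to 4. With arrays scaled to the same spread, a straight line over the days for CCR1 had a slope of -0.159, against -0.223 unscaled. The part of the array spread in the CCR1 values was not tested.

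CX3CR1, the receptor for fractalkine, had no common direction among days or probes. Its gene average was 0.73, -0.28, -0.08 and 0.10 on days 1 to 4, with a mean of 0.12 ± 0.44 (SD, 4 arrays). Probe 15998_1 was the only one with values on all days, at 0.69, -0.28, 0.10 and 0.62. Probe 35021_1 read 1.52 on day 1 and -0.37 on day 4, and probe 29603_1 read -0.02, -0.25 and 0.04 on days 1, 3 and 4. The day 1 average thus rested largely on a probe with no value on days 2 and 3.

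CCND2 encodes cyclin D2, the D-type cyclin that MAF is known to raise in myeloma. Its gene average was 0.66, 0.56, 0.04 and 0.06 on days 1 to 4, with a mean of 0.33 ± 0.32 (SD, 4 arrays). The days are not read by the same probes. Probe 16858_1 alone gave days 1 and 2 and read 0.21 on day 3, and probe 24787_1 gave -0.12 on day 3 and alone gave 0.06 on day 4. Over the days it measured, probe 16858_1 was lower on day 3 than on days 1 and 2, and it had no day 4 value.

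MAF values were small apart from a single reading. Of 17 values from 6 probes, 13 were below 0, a count not made over all genes. All but 1 of the 17 lay between -0.48 and 0.56. The exception was probe 17835_1, which read -4.18 on day 2 and -0.04, -0.26 and -0.14 on days 1, 3 and 4. The other probe with a day 2 value, 29416_1, read 0.56 on that array. The gene average was -0.34, -1.81, -0.12 and 0.01 on days 1 to 4, with a mean of -0.56 ± 0.84 (SD, 4 arrays). Without the single day 2 reading of probe 17835_1, a choice made after seeing the data, the mean was 0.027. On the day 2 array 8 of 10321 probes read -4 or lower.

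In order of the mean the genes ran ITGB7, SPP1, CCR1, CCND2, CX3CR1 and MAF. Each gene overlapped its neighbours in this order within 1 SD, while ITGB7 (1.48 ± 0.17) did not overlap CCR1 (0.47 ± 0.31) or any gene below it. These SDs span different days with 1 array each, so they mix change over time with noise. The overlaps are a description and no test between genes. The genes did not share a course over the days: ITGB7 was high throughout, CCR1 and CCND2 were higher on days 1 and 2, SPP1 was higher on days 3 and 4, and CX3CR1 and MAF changed sign between days. Of the 6 genes 4 were above 0 on all 4 days: ITGB7, SPP1, CCR1 and CCND2. Over all features with 4 values, 11.7% were above 0 on all 4 days. This share is printed beside the count only as background, since the genes were chosen on the same ratio. The share of features with days 1 and 2 both above or both below days 3 and 4 was not counted.

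**Figure D2:**
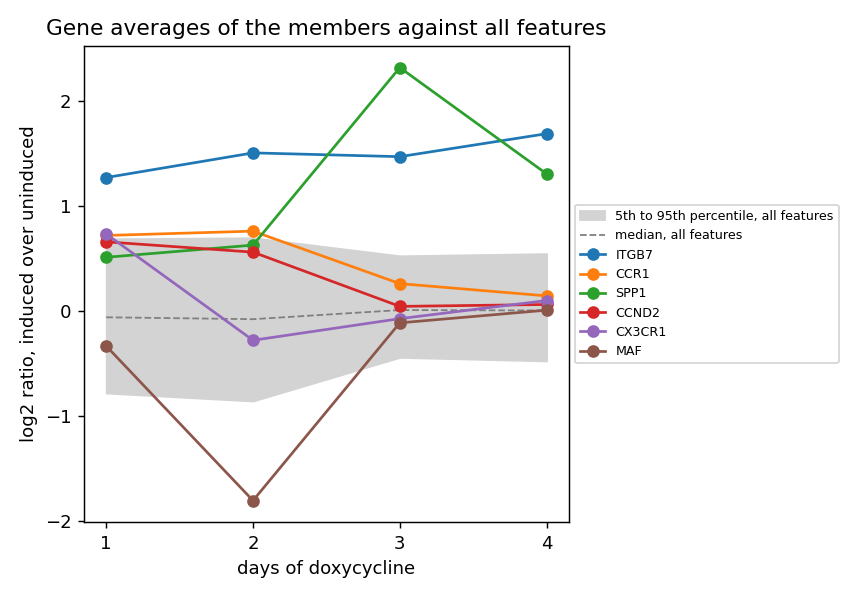
Gene averages (log2 ratio of induced over uninduced cells) against days of doxycycline, with the range from the 5th to the 95th percentile of all features on each array in grey and their median dashed. ITGB7 lay above the grey range on all 4 days, SPP1 on days 3 and 4, CX3CR1 on day 1 (0.73), and CCR1, just above it on days 1 and 2, lay inside it on days 3 and 4. MAF lay below it on day 2.

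The change over the days was tested as a straight line through the 4 log2 ratios, a contrast that a constant dye bias does not enter. No feature passed (0 of 6427, or 0.0%, limma with Benjamini-Hochberg adjustment at 0.05), while 963 had an unadjusted p under 0.05. CCR1 had a slope per day of -0.22 ± 0.09 on the log2 scale (SE; limma adjusted p = 0.333) and CCND2 of -0.23 ± 0.09 (limma adjusted p = 0.33). SPP1 had a slope of 0.41 ± 0.23 (limma adjusted p = 0.411) and ITGB7 of 0.12 ± 0.08 (limma adjusted p = 0.483). Those of MAF, 0.27 ± 0.26, and CX3CR1, -0.17 ± 0.15, had limma adjusted p-values of 0.619 and 0.579. Without the day 4 array the slope of SPP1 was 0.904, and without the day 3 array 0.276. That of MAF was 0.908 without the day 1 array, 0.114 without the day 2 array and 0.111 without the day 4 array. None of these 6 slopes passed the threshold, which does not show that the values stayed level.

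Days 3 and 4 were also set against days 1 and 2. SPP1 was 1.24 ± 0.35 (SE) higher on the later days (limma adjusted p = 0.23), CCR1 lower with a difference of -0.54 ± 0.18 (limma adjusted p = 0.243) and CCND2 lower with -0.56 ± 0.18 (limma adjusted p = 0.24). ITGB7 differed by 0.19 ± 0.20 (limma adjusted p = 0.617). No feature passed here either (0 of 6427 with limma, 1128 at an unadjusted p under 0.05).

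Most plasma cell markers had later values below the earlier ones as well. All 9 listed markers were measured, 8 had means above 0, and 8 had slopes below 0, with a median slope of -0.21 log2 per day. Over all features 45.8% had a slope below 0. The probes behind an average changed with the day for some markers. SDC1 and PRDM1 each gained a probe below 0 on days 3 and 4, and the day 1 average of JCHAIN rested on probe 23859_1 at 3.90. With only probes that had values on all 4 arrays, a setting added after seeing the data for these markers, 7 of 9 slopes were below 0 (median -0.191), against 45.9% of all features, and that of JCHAIN was 0.09. The median of the markers was 0.58, 0.70, 0.24 and 0.10 on days 1 to 4. SDC1 (syndecan-1, the plasma cell surface proteoglycan) read 1.15, 0.70, 0.35 and 0.16, and XBP1, the transcription factor of the secretory program, 0.85, 0.70, 0.24 and -0.20. No marker passed on mean or slope, and their part in the CCR1 and CCND2 values was not tested.

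Genes with the most similar course were found by the root mean square difference of the 4 log2 ratios, over 3768 named genes with values on every array. Nearest to ITGB7 were the retinol dehydrogenase DHRS9, at a difference of 0.283, the interleukin-5 receptor chain IL5RA (0.451), the lysosomal protease cathepsin A, CTSA (0.625), β-globin, HBB (0.655), and the ferritin light chain, FTL (0.723). The median difference from ITGB7 over all genes was 1.544. DHRS9 read 0.89, 1.18, 1.70 and 1.54 on days 1 to 4 and was the only one of the 5 to exceed ITGB7 on any day.

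Nearest to CCR1 were ABHD16A (0.043), ITGB5 (0.067), the ubiquitin-conjugating enzyme variant UBE2V1 (0.081), the B cell receptor component CD79B (0.089) and the collagen lysyl hydroxylase PLOD1 (0.093), with a median over all genes of 0.638. ITGB5, the β5 integrin chain that pairs with the αv chain in a receptor for vitronectin and osteopontin, read 0.83, 0.70, 0.29 and 0.14. All 5 courses were higher on days 1 and 2 than on days 3 and 4, which the choice by likeness to CCR1 nearly fixes. A likeness over 4 arrays that share a control description is a description of these arrays.

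**Figure D3:**
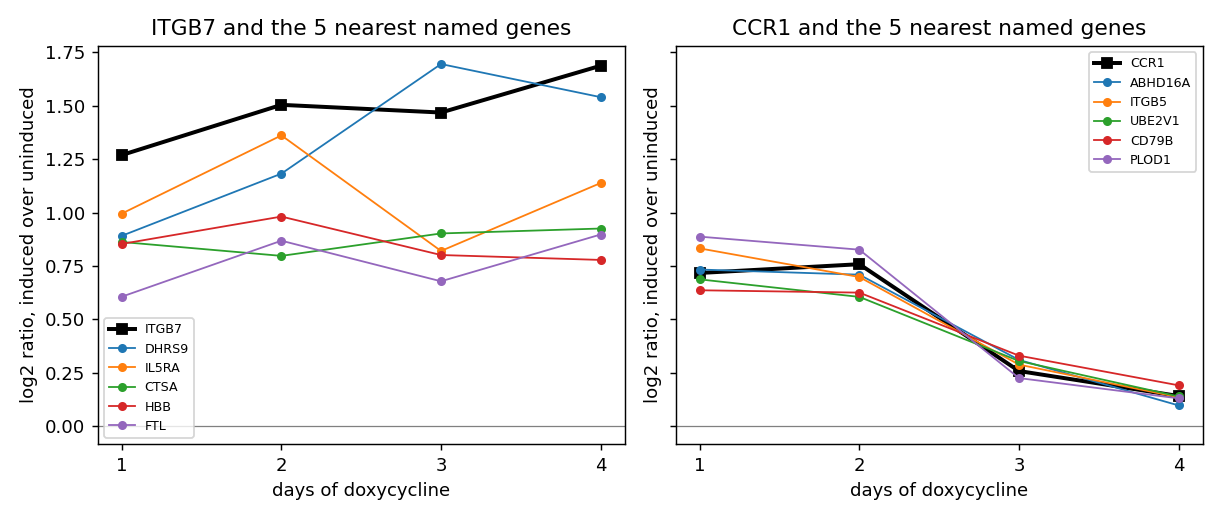
Log2 ratio of induced over uninduced cells against days of doxycycline for ITGB7 (left) and CCR1 (right), in black, with the 5 named genes of smallest root mean square difference in colour. The neighbours of ITGB7 lay 0.283 to 0.723 away, those of CCR1 0.043 to 0.093.

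The wider MAF network was read in 8 lists, which held 63 genes beside those above. Of these 48 had a probe and 43 had values on at least 3 arrays. On the mean over the 4 arrays 0 of 43 passed with limma. An unadjusted p under 0.05 was found for 5 (RND3, CCL3, CD44, ITGB5 and MADCAM1). That is about the share over all features, where 962 of 7713 had one. Over all features 26 of 7713 (0.337%) passed, and without the day 1, 2, 3 or 4 array 5, 3, 3 and 4 did. Of the 43 means 15 were above 0, with a median of -0.081. Over all features 44.0% of means were above 0, with a median of -0.032. On the slope 0 of 38 passed with limma. With limma array weights 3 of the 43 genes passed (CCL3, RND3 and VCAM1), where 291 of 7713 features (3.77%) did. With days 3 and 4 alone 3 of the 43 passed (CCL3, VCAM1 and BATF3), where 569 of 8650 features (6.58%) did.

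Of the other MAF family factors, 2 of 6 had a probe. MAFG, a small MAF that dimerises with CNC and BACH proteins, had a mean of 0.08 ± 0.36 (SD, 4 arrays), and its 2 probes differed in sign (-0.26 for 16601_1 and 0.26 for 28876_1). NRL, the retinal MAF factor, had a single value of 0.41 on day 4. Among 11 measured relatives and partners, the FOS, JUN, BATF, BACH and NFE2 factors that share binding sites or dimers with MAF proteins, 5 means were above 0 and 6 below, with a median of -0.07. FOS, the AP-1 subunit encoded by an immediate early gene, had a mean of -0.25 ± 0.39 and read -0.64, -0.50, -0.02 and 0.17 on days 1 to 4. FOSB, its relative, had a mean of 0.22 ± 0.25. BACH2, a B cell repressor, had 24 probes with values and a mean of -0.08 ± 0.18.

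Of the 7 other genes recalled as part of the MAF group of myeloma, 4 had values on at least 3 arrays, with a median of 0.015. RND3, which loosens the actin cytoskeleton, had the highest mean at 0.75 ± 0.40 (SD, 4 arrays; limma adjusted p = 0.171). It read 1.28, 0.82, 0.56 and 0.34 on days 1 to 4. All 8 values of its 2 probes were above 0, a run not counted over all genes. The slope of RND3 was -0.31 ± 0.08 log2 per day (SE; limma adjusted p = 0.304). NTRK2, the receptor for brain-derived neurotrophic factor, had a mean of 0.01 ± 0.56, SMARCA1, a chromatin remodelling ATPase, of -0.16 ± 0.10, and AHR, the aryl hydrocarbon receptor, of 0.02 ± 0.07. TLR4, the receptor for lipopolysaccharide, had values on days 3 and 4 alone, 0.66 and 0.88.

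The averages of the partners and ligands of integrin β7 mostly lay on the other side of 0 from ITGB7. The means of all 6 measured genes lay below 0 (median -0.26), and 0 passed with limma. Over all features 44.0% of means were above 0. ITGAE, the αE chain that pairs with β7 to bind E-cadherin, had a mean of -0.30 ± 0.29 (SD, 4 arrays; limma adjusted p = 0.436). ITGA4, the α4 chain that pairs with β7 or β1, read -0.51, 0.08 and 0.12 on days 1, 3 and 4 and had no day 2 value. Its day 1 average rested on probe 30697_1 at -1.98, while the other 3 probes lay between -0.16 and 0.09 on that array. Of the 12 ITGA4 probe values 9 were above 0, so its mean below 0 hangs on that reading. The ligands MADCAM1 (-0.36 ± 0.08; limma adjusted p = 0.275), VCAM1 (-0.34 ± 0.30; limma adjusted p = 0.402) and CDH1, E-cadherin (-0.23 ± 0.16; limma adjusted p = 0.481), were below 0 on all 4 days. For VCAM1 only probe 15978_1 had a value on days 3 and 4. For CDH1 the only probe with values on all days, 28504_1, read 0.34 on day 3. The day 3 average of CDH1 lay below 0 through probe 16023_1 at -0.46, which had values on days 3 and 4 alone.

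Of 6 measured ligands of CCR1 and CX3CR1, 1 had a mean above 0. CCL3, a chemokine that signals through CCR1 and is known in myeloma bone disease, read 0.57, 0.66, 0.79 and 0.76 on days 1 to 4, with a mean of 0.69 ± 0.10 (SD, 4 arrays; limma adjusted p = 0.074). All 10 values of its 3 probes were above 0, a run not counted over all genes. CCL5, another CCR1 ligand, had a mean of -0.24 ± 0.34, and CX3CL1, fractalkine, of -0.13 ± 0.22.

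Receptors of osteopontin varied, with a median of 0.005 over 5 genes. CD44, the hyaluronan receptor that also binds osteopontin, read 0.38, 0.37, 0.34 and 0.41, with a mean of 0.37 ± 0.03 (SD, 4 arrays; limma adjusted p = 0.249). Of its 24 probe values 20 were above 0, a count not made over all genes. The 4 below 0 were those of probes 25024_1 and 31594_1 on days 1 and 2, between -0.39 and -0.07. The αv chain gene ITGAV had a mean of -0.26 ± 0.50 and ITGB3 of 0.01 ± 0.26. Among the partners of cyclin D2, 2 of 7 means were above 0. The kinases that D-type cyclins activate, CDK4 and CDK6, had means of -0.16 ± 0.29 and 0.01 ± 0.20. The other D-type cyclins, CCND1 and CCND3, had means of -0.13 ± 0.14 and -0.08 ± 0.16, both below CCND2 on days 1 and 2. The CDK inhibitor CDKN1A had a mean of 0.28 ± 0.24 and CDKN1B of -0.26 ± 0.14. In the place of NUAK1, its upstream kinase STK11 (LKB1) had a mean of -0.20 ± 0.08, with 0 of 3 measured relatives passing with limma.

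**Figure D4:**
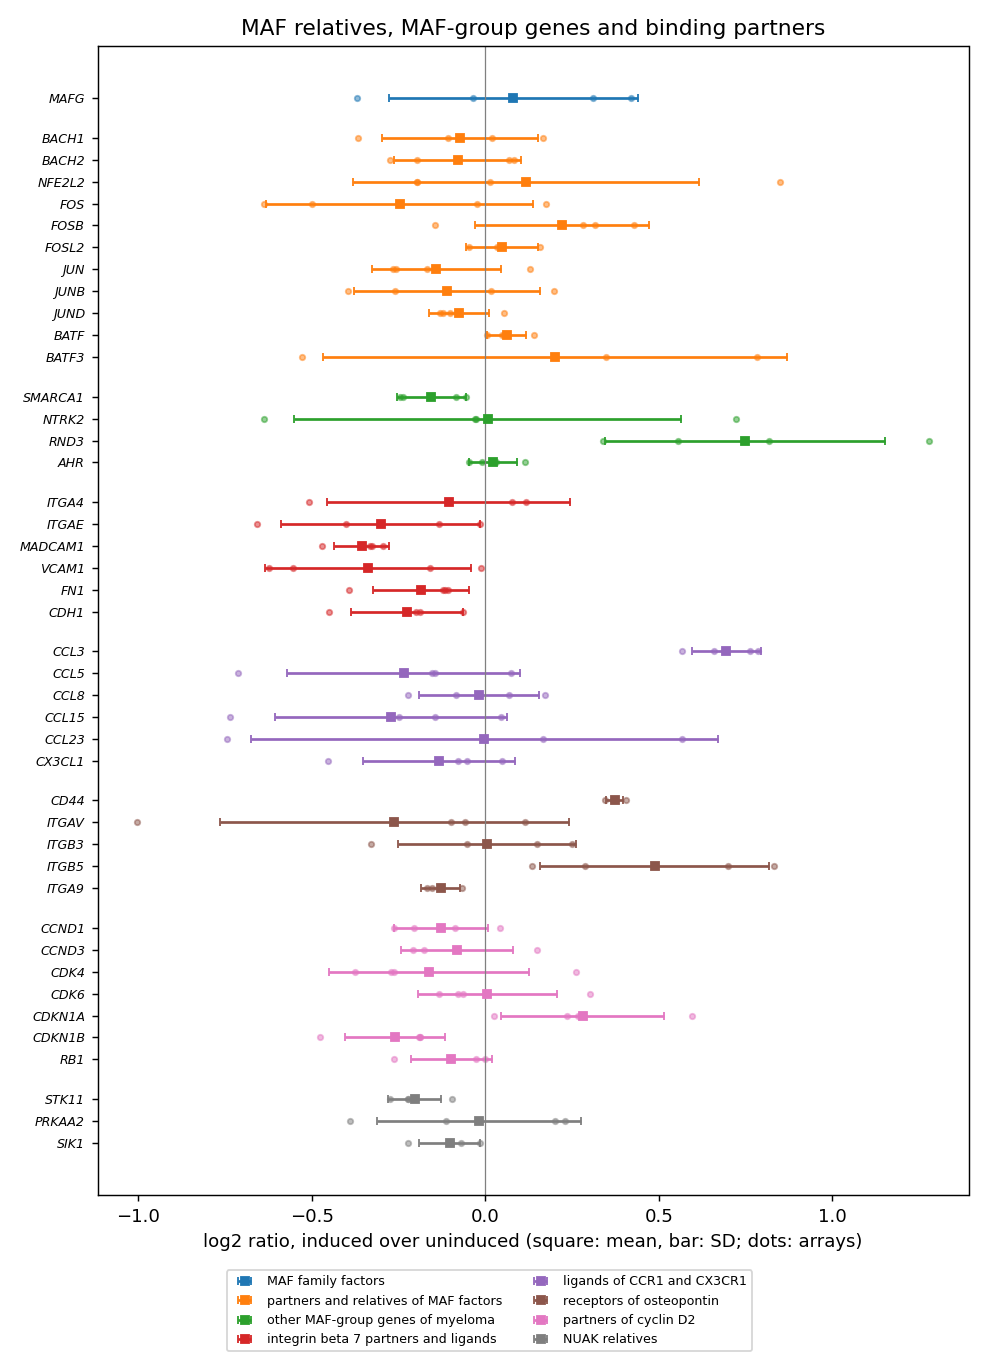
Mean log2 ratio of induced over uninduced cells (squares) with the SD over arrays (bars) and the single arrays (dots) for the 43 measured genes of the 8 lists, coloured by list. RND3 and CCL3 had the highest means, at 0.75 and 0.69. All 6 partners and ligands of integrin β7 had means below 0, that of ITGA4 through a single day 1 probe value. Over all features 44.0% of means were above 0.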

How the data were processed

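RNA of EJM cells was compared on 4 arrays, 1 per day of induction. The deposited values are log2 ratios of the channels, taken as Cy5 (induced) over Cy3 (uninduced) per the labels. Base 10 could not give the largest value, 7.255, on a 16-bit scanner, and the natural log is not excluded. How the authors corrected background, filtered spots and normalized them is not given in sources used here, and spot intensities were not used, so dim spots could not be filtered. Array medians lay between -0.068 and 0.004. Correlations between arrays across probes ran from 0.02 (days 1 and 4) to 0.566 (days 3 and 4). Values were present for 11386, 10321, 13544 and 13872 of 15246 probes on days 1 to 4. The number of arrays limits the precision.

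The annotation gave 10169 probes 1 gene symbol and 4 probes several, and left 5073 without a name here. Current symbols came from RefSeq by gene identifier (10128 probes matched). Probes of a symbol were averaged per array, and every other probe stayed a feature (9681 in all). The mean against 0 was fitted for features with values on at least 3 arrays, and the slope on day for those with all 4, with limma 3.58.1 in R 4.3.3 (lmFit, eBayes, two-sided, Benjamini-Hochberg over all features, threshold 0.05). The p-values cover the spread between these arrays alone, which are different days and may share a control preparation, and a gene-specific dye bias stays in the mean. The fits were checked on a single simulated set of ratios with large shifts alone, and all shifted features were called. In the mean fit more unshifted ones were called than the threshold allows on average. A single draw does not give the error rate of the fit. The genes and the lists were chosen with earlier results of these data known; any measured list gene could be named, and the nearest genes were the 5 with the smallest difference. Alternatives were scaling, centring, other probe summaries, no filter, array weights, days 3 and 4 alone and leaving out each array.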

Additional observations from a re-analysis of the deposited data

Results flagged for a closer look

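Over the 4 arrays, 73 sets of gene averages and probe values were searched for a day far from the other 3 (Dixon's test at its 95% critical value), and 6 were found; chance marks about 1 in 20. MAF probe 17835_1 read -4.178 on day 2, and this reading sets the day 2 average of MAF. On day 1, JCHAIN, the immunoglobulin joining chain gene, stood apart at 1.751, an average that rests on probe 23859_1 at 3.902 beside 0.875 and 0.476 for the other 2 probes with a value. Also apart on day 1 were FN1 (fibronectin) at -0.393, CDK6 at 0.302 and CDKN1B at -0.477. On day 4, JUND stood apart at 0.053. Days are different conditions with 1 array each, so a day that stands apart has no replicate check.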

How the results depend on the processing

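Each of the 6 genes kept the side of 0 of its mean under every alternative run except MAF, at 0.027 without the day 2 value of probe 17835_1 (added after seeing the data), and CX3CR1, which ranged from -0.087 to 0.281. The ITGB7 mean ranged from 1.135, using each gene's probe with fewest missing values, to 1.577, that of CCR1 from 0.199, with days 3 and 4 alone, to 0.577, that of CCND2 from 0.05, with days 3 and 4 alone, to 0.473, and that of SPP1 from 0.813, without the day 3 array, to 1.81, with days 3 and 4 alone. No slope passed under any alternative. That of CX3CR1 turned to 0.016 using the probe with fewest missing values, to 0.016 with probes with all 4 values, and ranged from -0.403 to 0.189 without 1 array. The 26 features called on the mean became 3 with arrays scaled to the same spread, 3 to 5 without 1 array, 291 with array weights and 569 with days 3 and 4 alone. Among the list genes 0 became 3 with array weights and 3 with days 3 and 4 alone. The median of the relatives of MAF factors was 0.118 using the probe with fewest missing values, and that of the partners and ligands of integrin β7 -0.112 with days 3 and 4 alone. The median of the osteopontin receptors was 0.217 with probes with all 4 values, 0.132 with array weights, 0.2 with days 3 and 4 alone and 0.024 to 0.244 without 1 array. The cause of these differences was not tested. For CCND2 no probe had all 4 values, so that alternative gave none. Each ratio sets induced against uninduced cells on the same array, so the fits already used that pairing. No pairing between days was possible, because each day has a single array and the labels give no replicate numbers. Missing values limit the depth: 67 of 88 possible probe values (76.1%) of the genes described were present.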
